A study of Mus musculus with 24 samples.

Results

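The 10 genes of mouse cone opsins and cone phototransduction were compared among the retinae of 8 inbred strains. They were chosen by name, as the genes of the deposited expression table whose symbol is Opn1sw, Opn1mw, Arr3, Gnat2, Gnb3, Gngt2, Pde6c, Pde6h, Cnga3 or Cngb3, which makes 10 of its 28802 genes. Cones are the photoreceptors of daylight and color vision. When a cone opsin absorbs light, it activates the cone transducin, which releases a phosphodiesterase from inhibition. The enzyme lowers cyclic GMP, the cyclic nucleotide-gated channel closes, and cone arrestin then binds the phosphorylated opsin and ends the signal.

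The study asked which retinal genes and pathways underlie the perception of contrast and what they contribute to refractive development of the eye, and it sequenced retinal RNA depleted of ribosomal RNA. All animals were untreated at postnatal day 28 (P28), and each strain gave 3 libraries, 24 in all. The animals were wild type only in that the study describes no engineered mutation. The groups were the classical inbred strains 129S1/Svlmj, A/J, C57BL/6J, NOD/ShiLtJ and NZO/HlLtJ and the wild-derived strains CAST/EiJ, PWK/PhJ and WSB/EiJ, which together founded the Collaborative Cross. The study treated each library as a biological replicate, but the labels do not say whether the libraries of a strain came from separate animals or litters, so the tests measure only the spread between these libraries. Libraries of a strain are numbered 1 to 3 and are listed in that order, which carries no meaning.

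Levels are in cpm, the count of a gene scaled to the total reads of its library. The total reads, estimated from the smallest step between values, were 57607005 to 78149771 per library (median 68942666), and a value of 3 reads, the limit of detection, corresponded to 0.0384 to 0.0521 cpm. The values of a library summed to 332472 to 366570 cpm, less than if the total held only reads assigned to the genes of the table. All 10 cone genes were far above it. Their lowest value was that of Cnga3 in CAST/EiJ library 3, at 2.13 cpm or 163 reads, with a counting error of 7.83%, and the counting error at the lowest value of every other cone gene was between 1.503% and 4.34%. This covers counting error only.

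Markers of other tissue were checked in the same libraries. The 11 lens markers, led by Cryaa, summed to 1458 cpm in 129S1/Svlmj library 2, 1750.4 cpm in NOD/ShiLtJ library 2 and 204 cpm in C57BL/6J library 2, and to 5.22 to 81.5 cpm in every other library. These libraries stood apart from the rest, and each call of a cone gene that changed without them is given below with both values. The 8 markers of the retinal pigment epithelium, led by Rgr, summed to 12.5 to 92.4 cpm per library, with Best1 below 0.05 cpm on average. The 6 blood cell markers, led by Hbb-bs, summed to strain means of 12.7 to 28.8 cpm. WSB/EiJ library 2 was the lowest of its strain in 8 of the 10 cone genes, all but Arr3 and Cngb3, with 54.3 cpm of Gnb3, for example, against 77.3 and 71.2 cpm. It was also lowest in the sum of 14 other phototransduction genes (2930.2 cpm, against 3588 and 3365 cpm) and of 6 photoreceptor transcription factors (1110.2 cpm, against 1347 and 1255 cpm). The low was not confined to photoreceptor genes. ON bipolar cell markers (631 cpm, against 718 and 707 cpm) and Muller glia markers (885 cpm, against 937 and 887 cpm) were lowest there too. So were pigment epithelium markers (55.0 cpm, against 92.4 and 60.1 cpm), and its values had the lowest sum of all libraries (332472 cpm). PWK/PhJ library 3 was likewise lowest of its strain in 8 cone genes, and CAST/EiJ library 2 and NOD/ShiLtJ library 2 in 7. Each of these also had the lowest sum of values of its strain. Sex is not given in the labels. Xist, the RNA transcribed from the inactive X chromosome, was at 962 cpm in 129S1/Svlmj library 3, 906 cpm in C57BL/6J library 3, 1081 cpm in PWK/PhJ library 2 and 1046 cpm in CAST/EiJ library 3, and the Y-linked Ddx3y was at most 0.118 cpm there. In the other libraries Xist was at most 9.71 cpm and Ddx3y at least 24.8 cpm.

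Each strain was compared with the mean of the other 7 on the log2(cpm + 1) scale by limma's moderated test, which borrows estimates of variance from other genes, and a difference was called at a Storey q-value below 0.01 over all 8 strains and the 16400 genes that averaged 0.5 cpm or more. All 10 cone genes passed this filter. Of their 80 gene-strain differences 52 were called (65%), against 31.8% of the differences of all genes tested and 31.9% of those of the 9869 genes whose mean lay between that of the lowest and the highest cone gene. The median absolute difference was 0.26 for the cone genes and 0.11 for all genes. The cone genes were chosen with earlier results of these data known, which limits both comparisons. By the moderated F-test over the 8 strains all 10 cone genes differed, as did 91.7% of all genes, and nothing is read from this count. The 8 comparisons share libraries and are not independent of each other. In bulk RNA, fewer cones and less RNA per cone cannot be told apart. Reads of all strains were aligned to the same reference genome (GRCm38/mm10). The part of sequence differences between a strain and this reference in the levels was not tested.

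The strains fell on different sides. In PWK/PhJ 7 cone genes were higher and 0 lower, where 23.5% of all genes were higher and 20.5% lower. In C57BL/6J 7 were higher (13.7% of all genes) and 0 lower (11.2%). Without C57BL/6J library 2, which was rich in lens markers, Arr3, Gnat2 and Gngt2 were not called there and Gnb3 was called lower. Gnb3 and Cngb3 were called lower in C57BL/6J when libraries were scaled to the sum of the table (-0.22, q = 0.00568, and -0.15, q = 0.00274). Both were also called lower there with libraries weighted by quality (-0.20, q = 0.00341, and -0.13, q = 0.00511). In WSB/EiJ 6 were higher (12.1%) and 1, Pde6h, was lower (21%), and with libraries weighted by quality 9 were called in place of 7, with Gnat2 (0.16, q = 0.00264) and Cngb3 (0.13, q = 0.00211) also higher. Cone genes went the other way in NOD/ShiLtJ, with 0 higher (15.9%) and 7 lower (9.79%). In A/J only Opn1sw was higher (15.3%) and 5 genes were lower (12.9%), and in NZO/HlLtJ only Pde6h was higher (13.2%) and 4 were lower (13.8%). With libraries weighted by quality NZO/HlLtJ had 8 calls in place of 5. Opn1sw (-0.13, q = 0.00608), Opn1mw (-0.17, q = 3.26e-04) and Gnb3 (-0.14, q = 0.00531) were then also lower. The weights raised the number of calls over all genes in every strain, and the shares of all genes given here are those without weights. CAST/EiJ was divided, with 3 genes higher (18%), namely both phosphodiesterase subunits and Cngb3, and 5 lower (25.9%). 129S1/Svlmj had 2 higher (14.8%) and 3 lower (13.2%). In this strain 3 genes were called in place of 5 without library 2, the library with 1458 cpm of lens markers. The number was also 3 when CAST/EiJ and PWK/PhJ were left out of the mean of the others, where Pde6h and Cngb3, lower in the comparison with all 7, were at 0.042 and not called, and only Pde6c was lower. The median difference of the cone genes ran from -0.34 in NOD/ShiLtJ to 0.32 in PWK/PhJ, while that of all genes lay between -0.038 and 0.029 in every strain.

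Markers of other cells also moved with strain. In NOD/ShiLtJ, where cone genes were lower, 6 of 9 ON bipolar cell markers were higher and 1 lower (median difference 0.28), 3 of 7 Muller glia markers were higher and 0 lower (0.18), and 2 of 4 blood cell markers were higher and 0 lower (0.76). In A/J, where 5 cone genes were lower, 5 ON bipolar cell markers were higher and 1 lower (0.18) and 4 of 7 pigment epithelium markers were higher and 0 lower (0.69). In CAST/EiJ 6 ON bipolar cell markers were lower and 1 higher (-0.35), and 4 pigment epithelium markers were lower and 0 higher (-0.71). In PWK/PhJ, where 7 cone genes were higher, 5 pigment epithelium markers were lower and 0 higher (-0.86) and 2 blood cell markers were lower and 0 higher (-0.45), whereas in WSB/EiJ 4 pigment epithelium markers were higher and 0 lower (0.74), 3 Muller glia markers were lower and 0 higher (-0.20) and 2 blood cell markers were lower and 0 higher (-0.31). ON bipolar cell markers did not always lie opposite to the cone genes. In WSB/EiJ 4 were higher and 1 lower (0.075), with 6 cone genes higher. They were 2 higher and 3 lower in C57BL/6J (-0.15) and in PWK/PhJ (-0.16). In NZO/HlLtJ 3 were higher and 2 lower (0.16), and in 129S1/Svlmj 0 were higher and 2 lower (-0.0047). The shares of all genes called in each strain are those given above. The part of these cells in the cone gene differences was not tested.

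**Figure D1:**
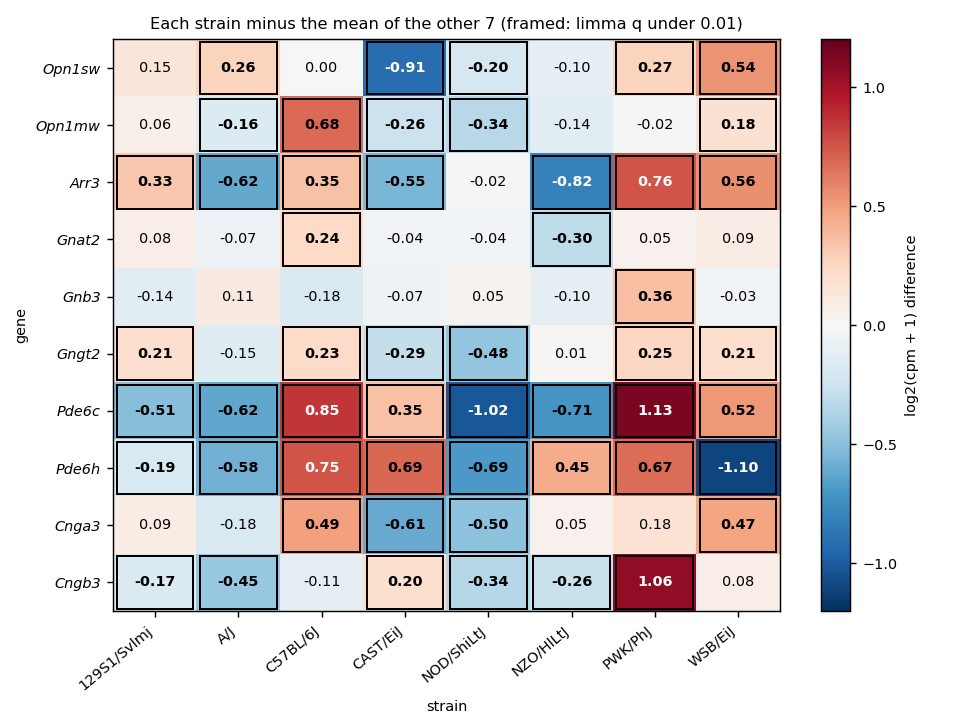
Difference of each strain from the mean of the other 7 strains on the log2(cpm + 1) scale for the 10 cone genes, with blue for lower and red for higher. Frames mark the 52 of 80 differences with a limma q-value below 0.01, which include every strain for Pde6c and Pde6h.

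Between pairs of strains, 162 of the 280 differences of cone genes were called (57.9%), against 29.8% over all genes and all 28 pairs. Pde6c differed in 24 of the 28 pairs, Pde6h in 22, Opn1sw and Cngb3 in 20, Arr3 in 18, Cnga3 in 17, Opn1mw and Gngt2 in 15, Gnat2 in 6 and Gnb3 in 5. When strains were ordered by level within each gene, 13 of 70 pairs of neighbours were called, against 6.44% of the neighbours of all genes tested, each ordered in the same way. PWK/PhJ had the highest mean of 5 genes, C57BL/6J of 4 and WSB/EiJ of 1. The mean of the highest strain was a median of 2.40 times that of the lowest strain over the cone genes (range 1.39 to 3.93), and 1.46 times over all genes tested.

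**Figure D2:**
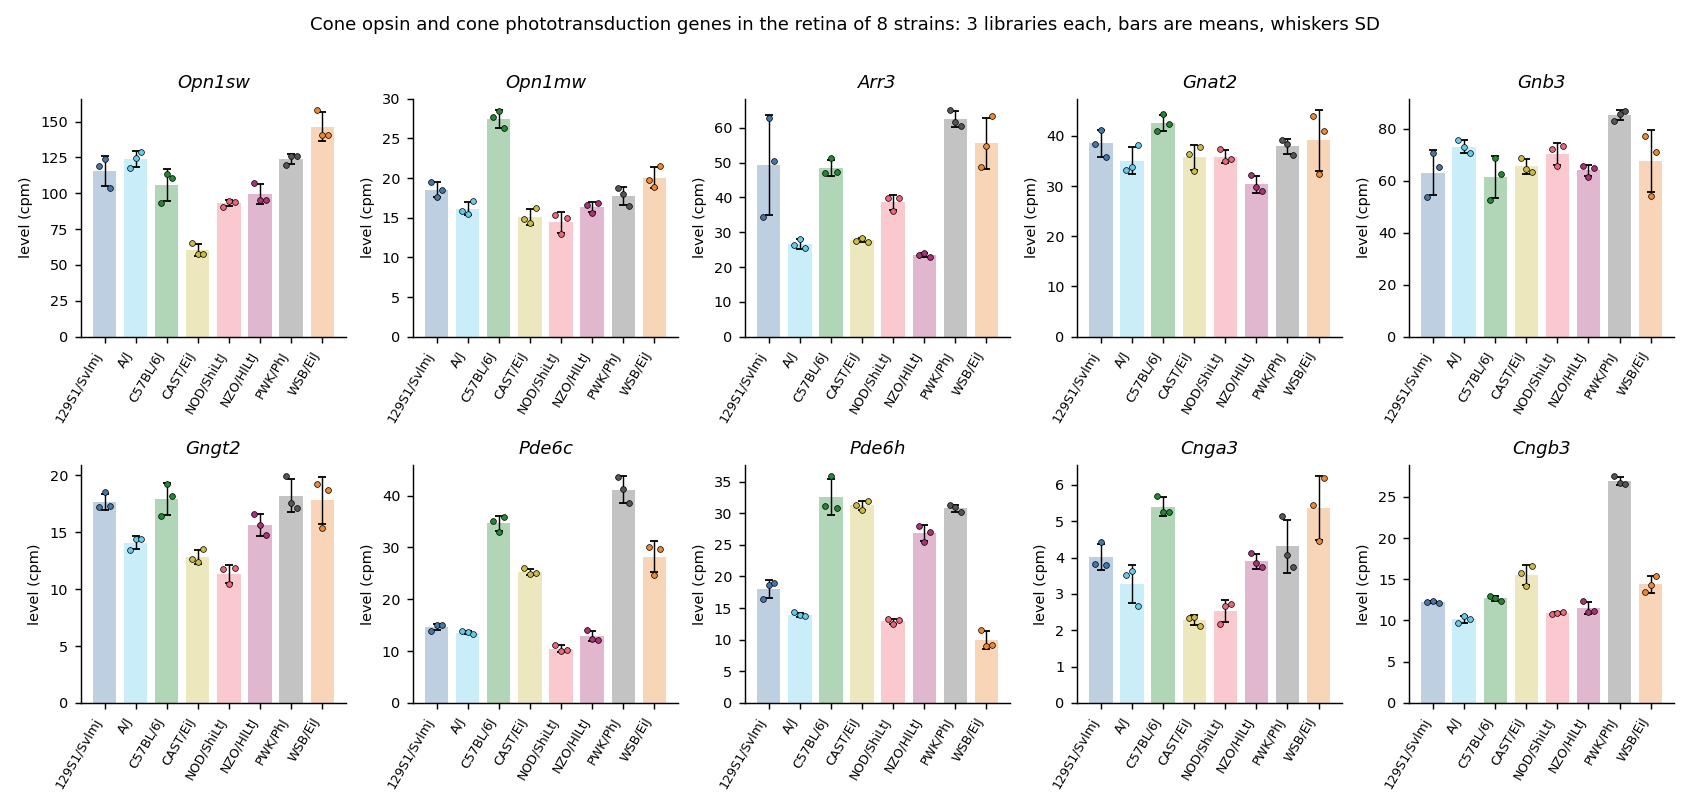
Level of each of the 10 cone genes in cpm (vertical axes, from 0) in the 8 strains, with points for the 3 libraries, bars for the strain mean and whiskers for the SD. Pde6c and Pde6h separate the strains into high and low groups that do not overlap, and WSB/EiJ is in the high group for Pde6c and lowest for Pde6h.

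Opn1sw encodes the short-wavelength opsin, which in mice absorbs ultraviolet light (GRCm38, chromosome 6, 29376671 to 29388468, minus strand). It was at 158, 140.4 and 141 cpm in WSB/EiJ, at 120.0, 126 and 126 cpm in PWK/PhJ, at 118, 125 and 129 cpm in A/J and at 119, 124 and 104 cpm in 129S1/Svlmj. It was at 92.9, 114 and 111 cpm in C57BL/6J, at 107, 95.04 and 95.6 cpm in NZO/HlLtJ, at 90.6, 94.3 and 94.0 cpm in NOD/ShiLtJ and at 65.1, 57.7 and 57.8 cpm in CAST/EiJ. Every CAST/EiJ library was below every library of the other strains and every WSB/EiJ library above them, and the strains between formed a gradient in which libraries of neighbours overlapped or nearly met. CAST/EiJ was lower than the other strains by a log2 difference of -0.91 (SE 0.0564, q = 3.29e-12) and WSB/EiJ higher by 0.54 (q = 2.94e-08), and the WSB/EiJ mean of 146 ± 10.1 cpm (SD, n = 3) was 2.43 times the CAST/EiJ mean of 60.2 ± 4.22 cpm. PWK/PhJ (0.27, q = 2.55e-04) and A/J (0.26, q = 2.88e-04) were also higher and NOD/ShiLtJ lower (-0.20, q = 0.00260). With CAST/EiJ and PWK/PhJ left out of the mean of the others, PWK/PhJ (0.14, q = 0.0285) and A/J (0.16, q = 0.0141) were not called in Opn1sw and NZO/HlLtJ was called lower (-0.22, q = 0.00250, against -0.10, q = 0.0763). Without NOD/ShiLtJ library 1 the difference of that strain was not called (-0.19, q = 0.0172), and without 129S1/Svlmj library 3 129S1/Svlmj was called higher (0.22, q = 0.00315, against 0.15, q = 0.0183 with it). Among neighbours in the order of levels, WSB/EiJ and PWK/PhJ differed (q = 0.00745), as did NOD/ShiLtJ and CAST/EiJ (q = 2.48e-07), and the neighbours from PWK/PhJ down to NOD/ShiLtJ were not called (q from 0.0889 to 0.434).

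The pigment epithelium markers were high in some of the strains with much Opn1sw, at 92.4, 55.0 and 60.1 cpm in WSB/EiJ and 30.5, 60.9 and 83.4 cpm in A/J, and low in CAST/EiJ at 18.2, 14.9 and 17.0 cpm, but PWK/PhJ, also high in Opn1sw, had 16.8, 24.2 and 12.5 cpm. Their part in the result was not tested. In the gene model, 15.5% of the exon bases of Opn1sw overlap Calu on the other strand, a gene at 30.04 cpm on average. Libraries were made with a kit that keeps the strand, but the sources used here do not say whether the counting used it.

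Opn1mw encodes the middle-wavelength opsin, which absorbs green light (chromosome X, 74127464 to 74150760, plus strand). It was at 27.7, 28.5 and 26.3 cpm in C57BL/6J, at 19.7, 18.9 and 21.5 cpm in WSB/EiJ, at 19.5, 17.7 and 18.5 cpm in 129S1/Svlmj and at 18.7, 17.96 and 16.5 cpm in PWK/PhJ. It was at 16.5, 15.6 and 16.9 cpm in NZO/HlLtJ, at 15.9, 15.5 and 17.1 cpm in A/J, at 14.8, 14.3 and 16.2 cpm in CAST/EiJ and at 15.4, 12.9 and 15.0 cpm in NOD/ShiLtJ. C57BL/6J stood alone, with each of its libraries above all libraries of the other strains, and the libraries of the remaining strains overlapped from neighbour to neighbour. C57BL/6J exceeded the other strains by 0.68 on the log2 scale (SE 0.0501, q = 8.45e-11) and its neighbour WSB/EiJ by 0.44 (q = 6.64e-06), and no other pair of neighbours was called (q from 0.0975 to 0.384). NOD/ShiLtJ (-0.34, q = 4.58e-06), CAST/EiJ (-0.26, q = 9.44e-05) and A/J (-0.16, q = 0.00612) were lower and WSB/EiJ higher (0.18, q = 0.00292).

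The smaller differences of Opn1mw depended on single libraries. A/J was not called without its library 1 (-0.15, q = 0.0274) or library 2 (-0.13, q = 0.0407), nor WSB/EiJ without its library 3 (0.13, q = 0.0395) or with CAST/EiJ and PWK/PhJ left out of the mean of the others (0.14, q = 0.0182). By the Benjamini-Hochberg method A/J was not called in Opn1mw (adjusted p = 0.0149). NZO/HlLtJ, at -0.14 (q = 0.0131), was called lower without NOD/ShiLtJ library 2 (-0.15, q = 0.00565), PWK/PhJ library 3 (-0.15, q = 0.00969) or all 3 lens-rich libraries (-0.15, q = 0.00536), and with CAST/EiJ and PWK/PhJ left out of the mean of the others (-0.19, q = 0.00219). Opn1mw and Arr3 lie on the X chromosome. In the libraries with high Xist, Opn1mw was at 18.5 cpm in 129S1/Svlmj, 26.3 cpm in C57BL/6J, 17.96 cpm in PWK/PhJ and 16.2 cpm in CAST/EiJ. These values were within the range of their strain in 129S1/Svlmj and PWK/PhJ, lowest in C57BL/6J and highest in CAST/EiJ, and with Xist as a covariate all 52 calls were kept.

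The balance of the opsins was described as the ratio of Opn1sw to Opn1mw, each in cpm per kb of exon. It was 2.36 ± 0.274 (SD, n = 3) in C57BL/6J and 2.44 ± 0.253 in CAST/EiJ, and between 3.71 ± 0.257, in NZO/HlLtJ, and 4.69 ± 0.197, in A/J, in the other strains. The 6 libraries of C57BL/6J and CAST/EiJ ranged from 2.05 to 2.68, below all others, which ranged from 3.42 to 4.91. The strains came to the low ratio by different levels, C57BL/6J with the most Opn1mw and CAST/EiJ with the least Opn1sw.

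Arr3 encodes cone arrestin (chromosome X, 100605497 to 100618493, plus strand). It was at 65.1, 61.7 and 60.6 cpm in PWK/PhJ, at 48.7, 54.8 and 63.3 cpm in WSB/EiJ, at 34.2, 62.9 and 50.6 cpm in 129S1/Svlmj and at 47.1, 51.2 and 47.3 cpm in C57BL/6J. It was at 39.96, 36.1 and 39.7 cpm in NOD/ShiLtJ, at 27.5, 28.4 and 27.2 cpm in CAST/EiJ, at 26.2, 28.1 and 25.4 cpm in A/J and at 23.5, 23.9 and 22.8 cpm in NZO/HlLtJ. All libraries of CAST/EiJ, A/J and NZO/HlLtJ were below all libraries of the other strains, and 129S1/Svlmj spanned most of the upper range, with a coefficient of variation of 29.2% against a median of 5.00% over the strains. NZO/HlLtJ (-0.82, SE 0.0947, q = 1.33e-07), A/J (-0.62, q = 7.00e-06) and CAST/EiJ (-0.55, q = 2.94e-05) were lower. PWK/PhJ (0.76, q = 3.86e-07), WSB/EiJ (0.56, q = 2.14e-05), C57BL/6J (0.35, q = 0.00219) and 129S1/Svlmj (0.33, q = 0.00365) were higher.

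The PWK/PhJ mean of Arr3 was 2.67 times that of NZO/HlLtJ, and of the neighbours only NOD/ShiLtJ and CAST/EiJ were called different (0.46, q = 0.00252), while the others had q from 0.0214 to 0.406. The 129S1/Svlmj difference was not called without its library 2 (0.13, q = 0.101) or library 3 (0.29, q = 0.0244), or without the 3 lens-rich libraries (0.13, q = 0.102), and the C57BL/6J difference was not called without its library 2 (0.31, q = 0.0149). The level of the X-linked Arr3 in the libraries with high Xist was 50.6 cpm in 129S1/Svlmj, 47.3 cpm in C57BL/6J, 61.7 cpm in PWK/PhJ and 27.2 cpm in CAST/EiJ.

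By the ratio of the highest to the lowest strain mean, the subunits of cone transducin had the smallest range. Gnat2, the alpha subunit that binds GTP (chromosome 3, 108092789 to 108101432, plus strand), had means from 30.4 ± 1.67 cpm (SD, n = 3) in NZO/HlLtJ to 42.6 ± 1.65 cpm in C57BL/6J, a ratio of 1.40. The NZO/HlLtJ libraries, at 32.3, 29.9 and 29.0 cpm, were at the bottom, next to WSB/EiJ library 2 at 32.3 cpm, and the C57BL/6J libraries, at 41.0, 44.3 and 42.4 cpm, overlapped with those of WSB/EiJ (44.0 and 41.0 cpm in libraries 1 and 3) and 129S1/Svlmj. Gnat2 was lower in NZO/HlLtJ (-0.30, SE 0.0621, q = 1.92e-04) and higher in C57BL/6J (0.24, q = 0.00163), the latter not without C57BL/6J library 2 (0.21, q = 0.0127) or the 3 lens-rich libraries (0.21, q = 0.0119). In WSB/EiJ it was at 0.09 (q = 0.114), and at 0.22 (q = 0.00170) without library 2. No pair of neighbours was called (q from 0.0278 to 0.424).

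Gnb3 encodes the beta subunit of cone transducin, which is also used by ON bipolar cells (chromosome 6, 124834240 to 124840275, minus strand). It was at 83.1, 85.9 and 86.9 cpm in PWK/PhJ, above all other libraries, which lay between 52.7 and 77.3 cpm and overlapped throughout. PWK/PhJ was the only strain called (0.36, SE 0.0780, q = 3.08e-04), and all 5 pairs called were of PWK/PhJ with another strain. The C57BL/6J difference of -0.18 (q = 0.0295) was called without C57BL/6J library 2 (-0.27, q = 0.00870), without WSB/EiJ library 2 (-0.20, q = 0.00601) and without the 3 lens-rich libraries (-0.26, q = 0.00715). The 9 ON bipolar cell markers, led by Trpm1, summed to 518, 518 and 526 cpm in PWK/PhJ, within the range of the other strains, from 447 cpm in CAST/EiJ library 3 to 718 cpm in WSB/EiJ library 1, and their part in the result was not tested.

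Gngt2, the gamma subunit of cone transducin (chromosome 11, 95837216 to 95845734, plus strand), had means of 18.2 ± 1.48 cpm in PWK/PhJ, 17.96 ± 1.40 cpm in C57BL/6J, 17.8 ± 2.09 cpm in WSB/EiJ and 17.7 ± 0.724 cpm in 129S1/Svlmj (SD, n = 3). They were 15.6 ± 0.930 cpm in NZO/HlLtJ, 14.1 ± 0.562 cpm in A/J, 12.8 ± 0.595 cpm in CAST/EiJ and 11.4 ± 0.776 cpm in NOD/ShiLtJ. The NOD/ShiLtJ libraries (11.7, 10.5 and 11.9 cpm) were below all others, and libraries of the upper strains overlapped. NOD/ShiLtJ (-0.48, SE 0.0572, q = 2.18e-07) and CAST/EiJ (-0.29, q = 1.30e-04) were lower. PWK/PhJ (0.25, q = 5.14e-04), C57BL/6J (0.23, q = 0.00122), WSB/EiJ (0.21, q = 0.00225) and 129S1/Svlmj (0.21, q = 0.00267) were higher.

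Each of the 4 higher calls of Gngt2 was lost when a library of that strain was left out. It was 0.19 (q = 0.0119) without PWK/PhJ library 1, 0.18 (q = 0.0162) without C57BL/6J library 2, 0.17 (q = 0.0207) without 129S1/Svlmj library 2, and 0.15 (q = 0.0304) or 0.17 (q = 0.0235) without WSB/EiJ library 1 or 3. Without all 3 lens-rich libraries it was 0.18 (q = 0.0161) in C57BL/6J and 0.17 (q = 0.0173) in 129S1/Svlmj. A/J, at -0.15 (q = 0.0204), was called lower without WSB/EiJ library 2 (-0.16, q = 0.00578). No pair of neighbours was called for Gngt2 (q from 0.0406 to 0.430). In its gene model 12.5% of the exon bases overlap Abi3 on the other strand, a gene at 0.475 cpm on average.

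By the same ratio, the cone phosphodiesterase genes had the largest range. Pde6c encodes the catalytic subunit, which hydrolyzes cyclic GMP (chromosome 19, 38132781 to 38183958, plus strand). It was at 43.6, 41.3 and 38.5 cpm in PWK/PhJ, at 35.1, 33.0 and 35.9 cpm in C57BL/6J, at 30.1, 24.7 and 29.8 cpm in WSB/EiJ and at 26.0, 24.9 and 25.0 cpm in CAST/EiJ. It was at 13.9, 15.0 and 15.0 cpm in 129S1/Svlmj, at 13.8, 13.7 and 13.2 cpm in A/J, at 14.0, 12.4 and 12.2 cpm in NZO/HlLtJ and at 11.2, 9.95 and 10.2 cpm in NOD/ShiLtJ. The wild-derived strains and C57BL/6J formed an upper group and the remaining strains a lower group, with no library between 15.0 and 24.7 cpm. Within them PWK/PhJ, C57BL/6J and NOD/ShiLtJ were each apart from their neighbours, while WSB/EiJ and CAST/EiJ overlapped, as did A/J and NZO/HlLtJ.

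All strains differed from the mean of the others in Pde6c. The log2 difference was 1.13 in PWK/PhJ (SE 0.0509, q = 1.07e-14), 0.85 in C57BL/6J, 0.52 in WSB/EiJ and 0.35 in CAST/EiJ (largest q = 3.05e-06), and -1.02 in NOD/ShiLtJ (q = 6.91e-14), -0.71 in NZO/HlLtJ, -0.62 in A/J and -0.51 in 129S1/Svlmj (largest q = 1.37e-08). The PWK/PhJ mean of 41.2 ± 2.56 cpm (SD, n = 3) was 3.93 times the NOD/ShiLtJ mean of 10.5 ± 0.655 cpm, the largest ratio among the cone genes. Of the 7 pairs of neighbours 4 were called different, and those of WSB/EiJ with CAST/EiJ (q = 0.0439), 129S1/Svlmj with A/J (q = 0.120) and A/J with NZO/HlLtJ (q = 0.188) were not called.

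Pde6h encodes the inhibitory gamma subunit of the same enzyme (chromosome 6, 136923832 to 136968865, plus strand). It was at 31.1, 35.9 and 30.8 cpm in C57BL/6J, at 31.3, 30.5 and 31.9 cpm in CAST/EiJ, at 31.3, 30.9 and 30.2 cpm in PWK/PhJ and at 28.0, 25.5 and 27.0 cpm in NZO/HlLtJ. It was at 16.4, 18.7 and 18.9 cpm in 129S1/Svlmj, at 14.3, 13.9 and 13.7 cpm in A/J, at 13.3, 12.5 and 13.04 cpm in NOD/ShiLtJ and at 11.6, 9.02 and 9.22 cpm in WSB/EiJ. Here too the strains split into high and low with no library between 18.9 and 25.5 cpm, but WSB/EiJ and NZO/HlLtJ had changed sides, with WSB/EiJ below all other libraries. The log2 difference was -1.10 in WSB/EiJ (SE 0.0543, q = 5.47e-14), -0.69 in NOD/ShiLtJ, -0.58 in A/J and -0.19 in 129S1/Svlmj (largest q = 0.00385). It was 0.75 in C57BL/6J, 0.69 in CAST/EiJ, 0.67 in PWK/PhJ and 0.45 in NZO/HlLtJ (largest q = 2.66e-07).

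The C57BL/6J mean of Pde6h was 3.28 times that of WSB/EiJ. Neighbours differed at NZO/HlLtJ and 129S1/Svlmj (0.55, q = 7.73e-07), 129S1/Svlmj and A/J (0.34, q = 2.77e-04) and NOD/ShiLtJ and WSB/EiJ (0.36, q = 1.80e-04), and were not called among C57BL/6J, CAST/EiJ, PWK/PhJ and NZO/HlLtJ (q from 0.0176 to 0.384) or between A/J and NOD/ShiLtJ (q = 0.129). The difference of 129S1/Svlmj, the smallest, was not called without its library 1 (-0.12, q = 0.0514), and it turned to 0.042 (q = 0.271) when CAST/EiJ and PWK/PhJ were left out of the mean of the others. In the gene model 1.73% of the exon bases overlap Arhgdib on the other strand, a gene at 0.387 cpm on average.

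The ratio of Pde6c to Pde6h, each in cpm per kb of exon, was 6.86, 7.24 and 8.53 in the WSB/EiJ libraries and 1.32, 1.29 and 1.19 in those of NZO/HlLtJ. These are the highest and the lowest strain, and neither overlapped with another. The mean was 3.53 ± 0.159 (SD, n = 3) in PWK/PhJ, and the remaining 5 strains had means from 2.13 to 2.83. The mean of WSB/EiJ was 5.96 times that of NZO/HlLtJ, the widest range of the ratios given here.

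**Figure D3:**
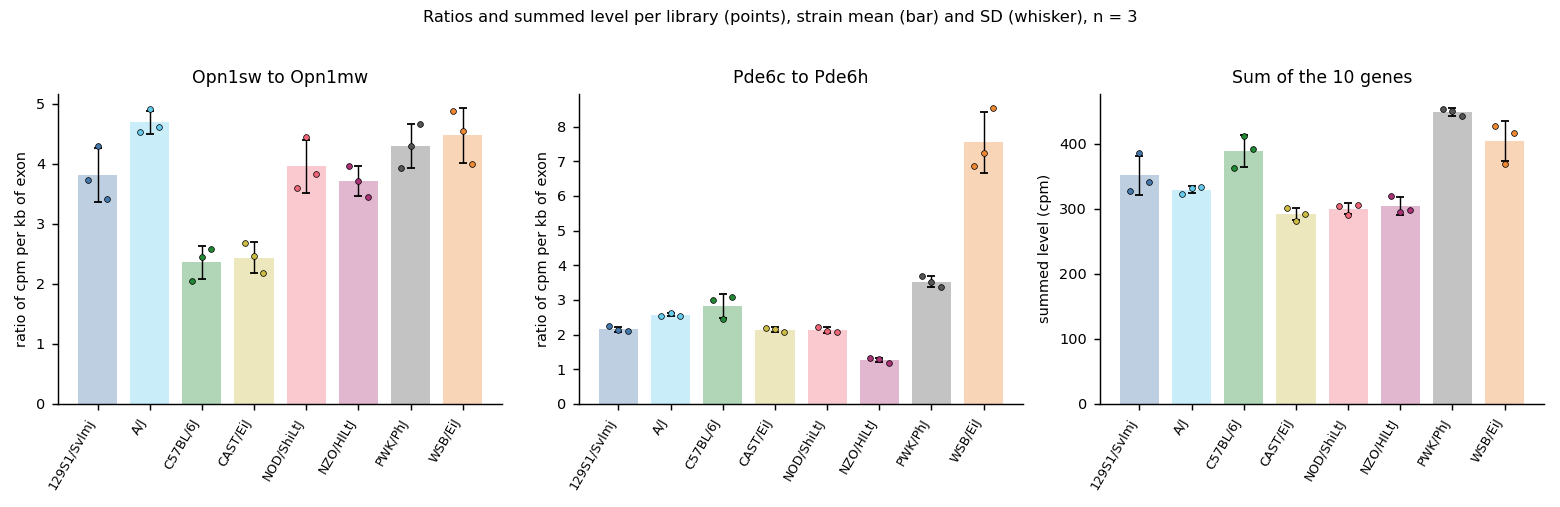
Ratio of Opn1sw to Opn1mw and of Pde6c to Pde6h in cpm per kb of exon, and the summed level of the 10 cone genes in cpm, in 8 strains with points for libraries, bars for means and whiskers for the SD (n = 3). C57BL/6J and CAST/EiJ are low in the opsin ratio (2.05 to 2.68) and WSB/EiJ is high in the phosphodiesterase ratio (6.86 to 8.53).

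The cyclic nucleotide-gated channel of cones has the subunits Cnga3 and Cngb3, of which Cnga3 forms channels by itself and Cngb3 modulates them. Cnga3 (chromosome 1, 37214434 to 37263384, plus strand) was the lowest of the cone genes, with means of 5.40 ± 0.263 cpm in C57BL/6J, 5.36 ± 0.873 cpm in WSB/EiJ, 4.31 ± 0.734 cpm in PWK/PhJ and 4.02 ± 0.354 cpm in 129S1/Svlmj (SD, n = 3). They were 3.89 ± 0.197 cpm in NZO/HlLtJ, 3.28 ± 0.526 cpm in A/J, 2.52 ± 0.307 cpm in NOD/ShiLtJ and 2.28 ± 0.135 cpm in CAST/EiJ. Libraries of most neighbours overlapped, none of the 7 pairs of neighbours was called (q from 0.0192 to 0.409), and the coefficient of variation had a median of 10.5%. C57BL/6J (0.49, SE 0.0793, q = 1.23e-05) and WSB/EiJ (0.47, q = 1.97e-05) were higher, and CAST/EiJ (-0.61, q = 7.28e-07) and NOD/ShiLtJ (-0.50, q = 1.12e-05) were lower. A/J, at -0.18 (q = 0.0328), was called lower in Cnga3 with CAST/EiJ and PWK/PhJ left out of the mean of the others (-0.26, q = 0.00643).

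Cngb3 (chromosome 4, 19280850 to 19510623, plus strand) was at 27.5, 26.7 and 26.5 cpm in PWK/PhJ, at 15.7, 14.2 and 16.6 cpm in CAST/EiJ, at 13.4, 14.3 and 15.4 cpm in WSB/EiJ and at 12.9, 12.7 and 12.4 cpm in C57BL/6J. It was at 12.2, 12.4 and 12.1 cpm in 129S1/Svlmj, at 12.3, 11.1 and 11.1 cpm in NZO/HlLtJ, at 10.8, 10.9 and 11.0 cpm in NOD/ShiLtJ and at 9.70, 10.5 and 10.2 cpm in A/J. PWK/PhJ was far above all other libraries and A/J just below them. Cngb3 was higher in PWK/PhJ (1.06, SE 0.0422, q = 9.14e-16) and CAST/EiJ (0.20, q = 3.13e-04). It was lower in A/J (-0.45, q = 4.04e-09), NOD/ShiLtJ (-0.34, q = 3.44e-07), NZO/HlLtJ (-0.26, q = 1.15e-05) and 129S1/Svlmj (-0.17, q = 0.00112).

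PWK/PhJ differed from its neighbour CAST/EiJ in Cngb3 by 0.76 (q = 7.70e-11) and WSB/EiJ from C57BL/6J by 0.17 (q = 0.00967), and other neighbours were not called (q from 0.0736 to 0.235). The lower call of 129S1/Svlmj depended on PWK/PhJ and CAST/EiJ, as without them in the mean of the others the difference was 0.042 (q = 0.221). NZO/HlLtJ was then at -0.056 (q = 0.157) and not called, and WSB/EiJ, at 0.079 (q = 0.0620) in the comparison with all 7, was called higher in Cngb3 (0.30, q = 2.97e-06). C57BL/6J, at -0.11 (q = 0.0159), was called lower without CAST/EiJ library 2 (-0.12, q = 0.00790) or WSB/EiJ library 1 (-0.12, q = 0.00978). The ratio of Cngb3 to Cnga3 in cpm per kb of exon was highest in CAST/EiJ (5.74 ± 0.768, SD, n = 3) and PWK/PhJ (5.34 ± 0.757), at 3.68 ± 0.460 in NOD/ShiLtJ and from 1.97 to 2.65 in the other strains. CAST/EiJ had the lowest Cnga3 and the highest Cngb3 but for PWK/PhJ, and PWK/PhJ had the highest Cngb3 and a Cnga3 in the middle of the range.

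Per kb of exon and over all libraries, Opn1sw had the highest level of the cone genes (42.4 cpm per kb), followed by Gnb3 (26.1), Arr3 (17.6), Gnat2 (12.3), Opn1mw (11.7), Gngt2 (8.37), Pde6c (7.61), Cngb3 (3.03), Pde6h (2.81) and Cnga3 (0.981 cpm per kb). The exon lengths are those of the gene models, merged over transcripts. The study names RefSeq as its annotation, whereas the starts given for these genes in the table are those of GENCODE M21 and the stops lie 1 base past its ends. The exons were taken from GENCODE M21, so levels per kb and ratios depend on that choice. Models with long exons, such as the 7.85 kb of Pde6h, give low levels per kb.

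The same comparisons were made for 9 rod counterparts of the cone genes. Of the 72 gene-strain differences of Sag, Gnat1, Gnb1, Gngt1, Pde6a, Pde6b, Pde6g, Cnga1 and Cngb1, 33 were called (45.8%, against 31.8% for all genes tested), with a median absolute difference of 0.16 against 0.26 for the cone genes. The highest strain mean was a median of 1.46 times the lowest (range 1.25 to 2.41). NOD/ShiLtJ, where 7 cone genes were lower, had 2 of the 9 rod genes higher (15.9% of all genes) and 2 lower (9.79%), and PWK/PhJ, where 7 cone genes were higher, had 1 higher (23.5%) and 1 lower (20.5%). In CAST/EiJ 4 rod genes were higher (18%) and 0 lower (25.9%), beside 3 higher and 5 lower cone genes. In A/J 1 was higher (15.3%) and 6 were lower (12.9%), beside 5 lower cone genes, and in 129S1/Svlmj 0 were higher (14.8%) and 4 lower (13.2%). There were 3 higher (13.2%) and 0 lower (13.8%) in NZO/HlLtJ, 2 higher (13.7%) and 2 lower (11.2%) in C57BL/6J, and 2 higher (12.1%) and 3 lower (21%) in WSB/EiJ.

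Ratios of cone to rod genes of the same function varied with strain. Sag, the rod arrestin, was lowest in C57BL/6J (917 ± 81.1 cpm; -0.91, q = 1.26e-12), where Arr3 was higher, and the ratio of Arr3 to Sag per kb ran from 0.0517 ± 0.00351 in A/J to 0.201 ± 0.00775 in C57BL/6J. Gngt1, the rod gamma subunit, was higher in CAST/EiJ (0.61, q = 1.42e-09) and NZO/HlLtJ (0.59, q = 3.09e-09), and the ratio of Gngt2 to Gngt1 per kb ran from 0.0443 in CAST/EiJ to 0.115 in C57BL/6J. The ratio of Pde6c to the rod catalytic subunit Pde6b ran from 0.0249 in NOD/ShiLtJ to 0.108 in PWK/PhJ (4.35 times), and that of Pde6c to the other rod catalytic subunit, Pde6a, from 0.0328 in NZO/HlLtJ to 0.111 in PWK/PhJ (3.38 times). The ratio of Gnat2 to Gnat1 had the smallest range, 1.41 between the highest and the lowest strain.

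Summed over the 10 cone genes, the level was 454, 451 and 442 cpm in PWK/PhJ, 428, 369 and 417 cpm in WSB/EiJ, 363, 413 and 392 cpm in C57BL/6J and 328, 386 and 341 cpm in 129S1/Svlmj. It was 323, 332 and 334 cpm in A/J, 320.4, 295 and 298 cpm in NZO/HlLtJ, 305, 290.4 and 306 cpm in NOD/ShiLtJ and 301, 282 and 292 cpm in CAST/EiJ. PWK/PhJ was above all other libraries, and the libraries of CAST/EiJ, NOD/ShiLtJ and NZO/HlLtJ overlapped at the bottom. The highest mean was 1.54 times the lowest. Opn1sw made the largest contribution to this sum, and the order of strains in it was not that of any single cone gene.

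Among the other lists, 41 of 112 gene-strain differences of 14 further phototransduction genes were called (36.6%), near the 31.8% of all genes tested, with which the shares below are also to be compared. Of 8 other genes of cones, Clca3a2 was below 0.05 cpm on average and was not tested. The remaining 7 had 31 of 56 differences called (55.4%). In NOD/ShiLtJ 2 of these 7 were called higher and 1 lower, and in A/J 3 and 1, where more of the cone genes above were lower. In C57BL/6J 2 were higher and 2 lower. In the remaining strains the side with more calls was that of the cone genes above. There were 3 higher and 2 lower in PWK/PhJ, 3 and 0 in WSB/EiJ and 2 and 3 in CAST/EiJ. There were 0 and 3 in NZO/HlLtJ and 1 and 3 in 129S1/Svlmj. These sides rest on few calls, and the shares of all genes called in each strain are those given above. Kcne2, a potassium channel subunit, was lowest in PWK/PhJ (6.92 ± 0.739 cpm; -0.77, q = 6.12e-09), and Thrb, the thyroid hormone receptor required for the middle-wavelength opsin, was lower in 129S1/Svlmj (-0.37), CAST/EiJ (-0.27) and PWK/PhJ (-0.18) and higher in A/J, C57BL/6J, NOD/ShiLtJ and WSB/EiJ (0.18 to 0.22), with a largest q of 4.01e-04. Of 48 differences of 6 photoreceptor transcription factors 18 were called (37.5%). The largest belonged to Rorb, a nuclear receptor of photoreceptor development, which was lower in NOD/ShiLtJ (-0.71, q = 3.87e-10) and A/J (-0.64, q = 2.48e-09) and higher in C57BL/6J (0.51, q = 8.74e-08). ON bipolar cell markers had 42 of 72 differences called (58.3%), Muller glia markers 23 of 56 (41.1%), pigment epithelium markers 21 of 56 (37.5%), lens markers 1 of 88 (1.14%) and blood cell markers 16 of 32 (50%).

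The patterns of the opsins across libraries were compared with those of 8515 protein-coding genes that averaged 5 cpm or more. The correlations are a description over 24 libraries that share strains. Highest for Opn1sw were Mylk (Pearson's r = 0.916), Clpb (0.903) and Dpysl3 (0.887), each lowest in CAST/EiJ. Highest for Opn1mw were Pcdhga2 (0.884), Rpgrip1 (0.843), which encodes a protein of the photoreceptor cilium, and Hgsnat (0.831), each highest in C57BL/6J. For the mean of the standardized levels of the 10 cone genes they were Ddhd1 (0.887), Ctsb (0.884) and Dcc (0.873), each highest in PWK/PhJ.

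Sequences before the start of transcription were available for 6 of the 10 genes in RefSeq (GRCm38.p6), with 7 promoters. The letters TAATC, the core of the sequence bound by the photoreceptor factors Crx and Otx2, were searched on both strands in the 250 bases before each start. They occurred in 19.8% of all 32851 promoters of this length and in those of 3 cone genes, with 3 matches before Arr3, 1 before Opn1sw and 1 before Gnat2. The letters are not in this window of Opn1mw, Pde6h or Cnga3. The opsins and Arr3 are shown because their levels order the strains differently, and capitals mark TAATC, which lies on the printed strand in each case. A match is a description only. The sequences are those of chr6:29380514-29380763 (minus strand) for Opn1sw, chrX:74127216-74127465 (plus strand) for Opn1mw and chrX:100605247-100605496 (plus strand) for Arr3, written 5′ to 3′. The RefSeq start of Opn1sw lies inside the longer gene model used for its exon length.
Opn1sw: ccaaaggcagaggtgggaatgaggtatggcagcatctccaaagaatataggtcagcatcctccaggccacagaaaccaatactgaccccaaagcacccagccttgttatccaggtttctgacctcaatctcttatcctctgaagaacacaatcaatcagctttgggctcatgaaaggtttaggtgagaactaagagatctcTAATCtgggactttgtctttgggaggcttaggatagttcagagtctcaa
Opn1mw: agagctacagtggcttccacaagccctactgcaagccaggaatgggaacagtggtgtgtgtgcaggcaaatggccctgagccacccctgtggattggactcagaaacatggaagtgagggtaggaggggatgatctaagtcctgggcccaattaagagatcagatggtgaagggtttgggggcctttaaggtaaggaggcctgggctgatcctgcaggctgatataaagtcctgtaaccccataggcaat
Arr3: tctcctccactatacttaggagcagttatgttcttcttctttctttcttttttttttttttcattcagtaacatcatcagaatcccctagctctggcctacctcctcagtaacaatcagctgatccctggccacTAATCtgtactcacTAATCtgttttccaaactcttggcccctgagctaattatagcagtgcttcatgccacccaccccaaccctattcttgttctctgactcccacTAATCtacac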

How the data were processed

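Retinal RNA of 24 libraries, 3 from each strain, was analyzed from the deposited table, in which the authors give cpm. Per the labels and the study's methods, the authors aligned reads with STAR to GRCm38/mm10, counted them per gene in Partek Flow by its E/M method, divided by total reads and added 0.0001. Versions are not given in the sources used here. Between 86.8% and 89.0% of low values were whole reads within 0.02 reads, and no count model was applied. The 16400 genes that averaged 0.5 cpm or more were fitted as log2(cpm + 1), which understates differences of low genes, with limma 3.58.1 in R 4.3.3 (lmFit, eBayes with trend, two-sided) for the F-test, each strain against the other 7 and all 28 pairs. Storey's q-value (lambda 0.5) below 0.01 was called. Sums, ratios and correlations were not tested. Exon lengths and overlaps are from GENCODE M21. The scripts were tested on simulated data. Named genes are the 10 members, genes of the lists, the 3 genes closest in pattern to each of Opn1sw, Opn1mw and the members' mean, and genes whose exons overlap those of a member. Members and lists were chosen with earlier results of these data known. The alternatives changed the pseudocount, filter, scaling, adjustment, variance model, Xist, reference strains and libraries. Python 3.11.15, numpy 2.4.6, pandas 2.3.3 and matplotlib 3.10.9 were used.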

Additional observations from a re-analysis of the deposited data

How the results depend on the processing

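Of the 52 called differences between a strain and the other 7, 41 were called in all 24 fits that left out 1 library, and 0 changed sign. The calls lost are given with their genes in the report. All 52 were kept with a pseudocount of 0.1, no filter, no trend, Xist as a covariate, median-ratio scaling (1 gained), quantile normalization (2 gained), scaling to the table's own sum (4 gained) and library quality weights (8 gained). A q-value below 0.05, which keeps the 52 by definition, gained 7. The scalings gained Gngt2 in A/J (all 3), Opn1sw in 129S1/Svlmj (quantile and own sum) and Gnb3 and Cngb3 in C57BL/6J (own sum). The weights gained Opn1sw, Opn1mw and Gnb3 in NZO/HlLtJ, Gnat2 and Cngb3 in WSB/EiJ, Gnb3 and Cngb3 in C57BL/6J and Gngt2 in A/J. They also raised the number of calls over all genes in every strain, so the 8 gains are not read as particular to the cone genes. By Benjamini-Hochberg 51 were kept, and Opn1mw in A/J was lost (adjusted p = 0.0149 by limma). No scaling moved the median of all genes by more than 0.0363 (log2). No paired analysis was possible because the labels give no replicate numbers shared between strains. The study pooled libraries for sequencing in randomized blocks, but the labels do not say which library was in which block, so blocks could not be fitted.

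Leaving CAST/EiJ and PWK/PhJ out of the mean of the others kept 46, lost 4, gained 4 and reversed 2, which were Pde6h (0.042) and Cngb3 (0.042) in 129S1/Svlmj, where 3 members were then called in place of 5. The lost calls were Opn1sw in A/J and PWK/PhJ, Opn1mw in WSB/EiJ and Cngb3 in NZO/HlLtJ, and the gained ones Opn1sw and Opn1mw in NZO/HlLtJ, Cnga3 in A/J and Cngb3 in WSB/EiJ. Without the 3 libraries with the highest lens sums, an alternative chosen after seeing the data, 48 were kept, 4 were lost and 2 gained, and 3 members were called in 129S1/Svlmj. The number called in this strain ranged from 3 to 5 when 1 library was left out. Library quality weights gave 8 members in place of 5 and 6796 genes in NZO/HlLtJ, where more genes were called than without weights.

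With a mean of at least 5 cpm, which leaves out Cnga3 and tests fewer genes, all 48 remaining calls were kept. The F-test then called 8749 genes, the pairs 80639 differences, and the strains 2742 genes in 129S1/Svlmj, 2695 in A/J, 2263 in C57BL/6J, 4140 in CAST/EiJ, 2469 in NOD/ShiLtJ, 2547 in NZO/HlLtJ, 4148 in PWK/PhJ and 3197 in WSB/EiJ. A q-value below 0.05 called 7170 genes in 129S1/Svlmj, 7199 in A/J, 6418 in C57BL/6J, 6646 in NOD/ShiLtJ and 6920 in NZO/HlLtJ.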
